A study of Mus musculus with 2 samples.

Results

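The genes described here are imprinted genes known for their part in prenatal growth. Of 10 genes listed by symbol, 8 had a probe whose only gene symbol in the platform annotation was theirs: Igf2r, Grb10, Cdkn1c, Dlk1, Mest, Peg3, Peg10 and Sgce. They are 8 of 13697 genes named on the array and carried 9 probes in all. Igf2 and H19 are not analysed here. Expression was measured in mouse embryoid bodies, which are floating clumps of differentiating embryonic stem (ES) cells, made from ES cells that were Elongin A+/+ or Elongin A-/-. Both groups received 2 µM retinoic acid, were grown in the same serum and N2 medium and were collected at day 4, and each group is 1 array. Elongin A is the transcriptionally active part of the Elongin complex, which speeds RNA polymerase II along genes, and the comparison asks which transcript levels differ when it is absent. The labels do not state how the mutation was made, or how many ES cell clones or cultures each array represents.

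An imprinted gene is transcribed mainly from the copy inherited from the mother or from the father, as marked by DNA methylation laid down in the germ line. Many of these genes act on fetal and placental growth, with paternally expressed genes often promoting it and maternally expressed genes often restraining it. Several of them are known to be induced when ES cells differentiate, to levels that depend on the lineage formed. The arrays measured total transcript and not the parental copy it came from. Of the genes here Igf2r, Grb10 and Cdkn1c are known as maternally expressed, Grb10 with an exception in neurons, and Dlk1, Mest, Peg3, Peg10 and Sgce as paternally expressed.

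The start regions of 3 genes that differed far above background are shown. CG, the dinucleotide whose methylation carries imprints, is in capitals. These data do not place the imprint of any gene in the region shown. RefSeq entries (build GRCm38.p6), 300 bases each, matched 5 of the 8 genes by symbol, with 8 start sites between them: Igf2r, Mest, Dlk1, Peg3 and Grb10. The regions run 5′ to 3′ along the gene from 250 bases before the start to 50 after it. Igf2r, the gene with the widest difference, is at chr17:12769657-12769956 on the minus strand, Mest, which was lower at a level where few genes differed, at chr6:30737800-30738099 on the plus strand, and Dlk1, which was higher, at chr12:109452573-109452872 on the plus strand.
Igf2r: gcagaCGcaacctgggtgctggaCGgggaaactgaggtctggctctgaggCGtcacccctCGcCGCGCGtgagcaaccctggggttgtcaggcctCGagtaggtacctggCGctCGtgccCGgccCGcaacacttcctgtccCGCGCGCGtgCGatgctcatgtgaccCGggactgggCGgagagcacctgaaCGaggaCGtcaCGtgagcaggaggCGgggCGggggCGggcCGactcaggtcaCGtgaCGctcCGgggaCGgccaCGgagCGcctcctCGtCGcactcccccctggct
Mest: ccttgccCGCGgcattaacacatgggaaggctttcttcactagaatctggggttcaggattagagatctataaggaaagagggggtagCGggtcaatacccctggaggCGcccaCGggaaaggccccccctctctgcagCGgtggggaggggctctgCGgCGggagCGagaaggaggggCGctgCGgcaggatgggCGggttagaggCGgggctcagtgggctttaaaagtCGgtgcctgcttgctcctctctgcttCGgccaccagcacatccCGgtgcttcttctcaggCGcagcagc
Dlk1: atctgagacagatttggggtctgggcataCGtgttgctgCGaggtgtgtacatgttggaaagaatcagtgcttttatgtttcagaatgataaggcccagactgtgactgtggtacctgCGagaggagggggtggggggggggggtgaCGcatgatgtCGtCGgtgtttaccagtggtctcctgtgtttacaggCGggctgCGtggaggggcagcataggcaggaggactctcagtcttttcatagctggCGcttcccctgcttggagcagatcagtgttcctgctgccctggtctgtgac
The Igf2r region held 34 CG, the Mest region 17 and the Dlk1 region 9. The median over 32851 start regions of the same length was 7, and 7.73% of them held as many as Igf2r, 31.4% as many as Mest and 45.8% as many as Dlk1. Mest has another start site 3 bases further on that is not shown because its region is almost the same, and one upstream with 8 CG. The region around the first listed start of Grb10 held 45 CG, which 1.93% of regions reached, the other start of Grb10 held 9, and Peg3 held 13. The hexamer AGGTCA, the core letters recognised by retinoic acid receptors, was searched on both strands and occurred once in the Igf2r region and in none of the other 7, against 16.3% of all regions. The letters GGGCGG, bound by factors of the SP family and holding a CG themselves, occurred 3 times for Igf2r, once for Mest and not for Dlk1, and 35.7% of all regions held them on either strand. The arrays hold no methylation or binding data, so these counts describe the sequences only.

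On the Elongin A-/- array, Igf2r, Mest, Grb10 and Peg10 were at least 2-fold lower than on the Elongin A+/+ array, and Sgce and Peg3 were at least 2-fold higher. Dlk1 was higher by 1.98-fold and Cdkn1c lower by 1.69-fold. Igf2r, the receptor that clears insulin-like growth factor 2, was lower by 4.03-fold, the widest difference among the 8 genes. With 1 array per genotype there is no replicate check, no p-value was computed, and genotype cannot be told apart from the cell line, the culture or the array itself. Values are intensities in arbitrary units after quantile normalisation, and differences are log2 of Elongin A-/- minus Elongin A+/+. The floor, below which a value was taken as the floor, was the array median of 1.03.

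Counted at 2-fold, 6 of the 8 genes (75%) lay apart, 2 higher and 4 lower. Among all 9568 measured genes 12.8% lay at least 2-fold apart, 6.77% higher and 5.99% lower, and the share of these genes was above that background. Of the 7 genes above the floor on both arrays 5 were 2-fold apart, against 9.91% of all such genes. The genes were proposed with results of these arrays known, so this excess is a description and supports nothing further. With the values as deposited the split was 3 higher and 3 lower, and with each array centred on its median above the floor it was 1 higher and 4 lower. The median difference of the 8 genes was -0.95, against -0.02 for all measured genes. That median stands for genes on both sides of 0, with 3 between 0.99 and 1.14, 5 between -2.01 and -0.75 and none in the gap. Only Igf2r was past 3-fold.

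**Figure D1:**
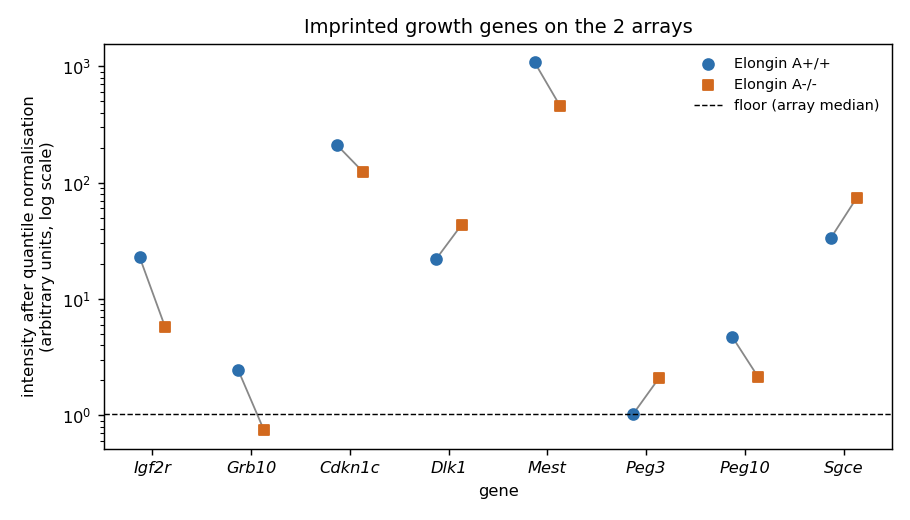
Intensity of each imprinted growth gene (x axis) on the Elongin A+/+ array (circles) and on the Elongin A-/- array (squares), after quantile normalisation, on a log scale in arbitrary units; the dashed line is the floor of 1.03. In the plot 5 lines slope down and 3 slope up, and Grb10 crosses the floor while Peg3 starts on it.

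Error can be judged only from genes that carry several probes. Over 224 genes with several probes above the floor on both arrays, differences of the same gene scattered with an SD of 0.43 on the log2 scale, and in 20 of them the probes were 2-fold or more apart from each other. That SD holds errors of probe and annotation and nothing of the spread between cultures. Cdkn1c lay 1.77 of these SDs from 0, Dlk1 2.31 and Igf2r 4.71, with the remaining 5 genes between 2.39 and 2.94. Elongin A itself (Eloa) had 3.88 and 3.58, a difference of -0.12, or 0.05 as deposited. The labels do not say whether its probe lies in the part changed by the mutation, so that it checks nothing, and the directions are those of the labels. Whole chromosomes also stood apart, with medians of 0.43 over 522 measured genes of chromosome 8, 0.41 over 803 of chromosome 11 and -0.26 over 518 of chromosome 6. The other chromosomes with at least 20 measured genes had medians between -0.13 and -0.00.

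The receptor and adaptor genes of insulin-like growth factor signalling came first. Igf2r encodes a receptor at the cell surface and in endosomes that takes up insulin-like growth factor 2 for degradation in lysosomes and sorts enzymes tagged with mannose 6-phosphate. Its probe gave 23.0 on the Elongin A+/+ array and 5.69 on the Elongin A-/- array, and 22.2 and 5.97 as deposited. The log2 difference was -2.01, which 193 of 9568 measured genes (2.02%) equalled or passed in size. Among 1192 genes within 0.5 log2 units of its mean level, 1.68% were as far apart. Such shares, here and below, count the gene itself. Igf2r lies on chromosome 17, where the median over 471 measured genes was -0.03. Its measured neighbours did not share the difference. Of the 10 nearest named genes, 7 were measured and none was 2-fold lower, with a median of -0.16. Slc22a2, an organic cation transporter and maternally expressed neighbour, and Plg and Mas1 were below the floor on both arrays, while Mrgprh, a receptor gene, was at least 28.9-fold higher from a value below the floor (0.85 to 29.6).

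Grb10 encodes an adaptor that binds the insulin and insulin-like growth factor receptors and dampens their signal. It gave 2.43 on the Elongin A+/+ array and 0.74 on the other, which is below the floor, so it was at least 2.37-fold lower (log2 difference -1.24). Its level was close to background, where differences are common: 12.9% of 2442 genes at a similar level were as far apart. Grb10 lies on chromosome 11, where 76.8% of measured genes were higher, and against the chromosome's median its difference was -1.66. The 5 measured genes among its 10 nearest were all higher, with a median of 0.66, among them Ddc, the enzyme that makes dopamine (4.95 and 6.06), Fignl1 (4.63 and 7.56) and Sec61g, a subunit of the protein translocation channel (477 and 751). Grb10 thus lay below each of its measured neighbours on these arrays.

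Cdkn1c encodes p57, an inhibitor of cyclin-dependent kinases that holds cells out of the cycle. It gave 210 on the Elongin A+/+ array and 124 on the Elongin A-/- array, with 202 and 127 as deposited. The log2 difference of -0.75 stayed inside 2-fold, but 6.10% of 328 genes at a similar level were as far apart, since bright probes differed little in general. Cdkn1c lies in an imprinted domain on chromosome 7, a chromosome with a median of -0.01. On one side of it, Slc22a18, a transporter, went from 2.00 to below the floor (-0.96) and Phlda2, a restrainer of placental growth, from 14.5 to 10.5 (-0.46). On the other side, Kcnq1, a potassium channel, was at least 1.85-fold higher from below the floor, and Trpm5, a channel of taste cells, at least 1.18-fold higher. Tssc4, the next gene on that side, was 2.45-fold lower (4.31 to 1.76). Slc22a18, Phlda2, Kcnq1 and Tssc4 are maternally expressed genes of the same domain, and of these 4 all but Kcnq1, which had 0.67 and 1.90, were lower like Cdkn1c. Cd81, another of them, had 91.0 and 99.1. Of the 10 nearest named genes 8 were measured, 3 higher and 5 lower by any margin, with only 1 of them 2-fold lower.

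Dlk1 encodes a transmembrane protein related to Notch ligands that holds precursor cells, those of fat and muscle among them, in an undifferentiated state. It gave 21.9 on the Elongin A+/+ array and 43.4 on the Elongin A-/- array, and 21.2 and 44.7 as deposited. The log2 difference was 0.99 after normalisation and 1.08 as deposited, on either side of 2-fold. Of 984 genes at a similar level 3.96% were as far apart. On chromosome 12, where the median over 296 measured genes was -0.09, the next named genes on the far side of Dlk1 are Rtl1 and Dio3, paternally expressed genes of the same domain. Rtl1, a retrotransposon-derived gene of placenta and muscle, went from below the floor to 1.58, and Dio3, which inactivates thyroid hormone, from below the floor to 1.56. Both were thus higher by at least 1.54-fold and 1.52-fold, from values at background. Wdr25 and Wars, on the near side and in none of the imprinted lists, differed by 0.29 and -0.28.

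Mest, also called Peg1, encodes a protein related to hydrolases that is abundant in embryonic mesoderm. It gave 1082 on the Elongin A+/+ array and 453 on the Elongin A-/- array, a log2 difference of -1.26. Of the 60 genes at a similar level, Mest included, 1.67% were as far apart, and that share is Mest alone. Mest lies on chromosome 6, where 32.0% of measured genes were higher, and it was -0.99 against the chromosome's median, just inside 2-fold. All 3 genes of this chromosome described here, Mest, Sgce and Peg10, were 2-fold apart, against 18.1% of its measured genes. Its imprinted neighbour Copg2, a coat protein of transport vesicles that lies tail to tail with it, had 49.5 and 52.6 (0.09). Cpa1, a pancreatic carboxypeptidase, had 2.12 and 2.27. The other nearest genes, Cep41 (1.26 to 0.67) and Tsga13 (1.10 to 0.43), ended below the floor and were lower by at least 1.23-fold and 1.07-fold. Without a floor these differences were -0.90 and -1.35, as wide in Tsga13 as in Mest but at background level.

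Sgce and Peg10 lie next to each other on chromosome 6, head to head, and are known to be paternally expressed under the same imprint, yet their probes differed in opposite directions. Sgce encodes epsilon-sarcoglycan, a membrane protein of the dystrophin-linked complex. It gave 33.5 on the Elongin A+/+ array and 73.9 on the Elongin A-/- array, a log2 difference of 1.14 that 1.55% of 775 genes at a similar level reached. Against the median of chromosome 6 it was 1.40. Peg10 encodes a retrotransposon-derived protein needed for the placenta. Its brighter probe gave 4.74 and 2.15, a log2 difference of -1.14, and its dimmer probe 0.86 and 0.27, below the floor on both arrays. The value was -0.99 as deposited and -0.98 as the mean over both probes, and it stayed past 2-fold in 4 of 8 other settings. In Peg10 a difference this wide was common for its level, at 20.2% of 1270 genes, and against the chromosome's median it was -0.87. The adjoining genes Casd1 (39.5 and 28.2) before Sgce and Ppp1r9a (1.78 to below the floor) after Peg10 were lower, as was the collagen gene Col1a2 (19.5 and 17.2). Calcr, the calcitonin receptor, a maternally expressed gene of chromosome 6, was at least 4.99-fold lower, from 5.12. Gng11, a G protein subunit 3 genes from Sgce, chosen after its values were seen, was 5.36-fold higher (3.35 to 17.9).

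Peg3 encodes a zinc finger protein that acts in growth and maternal behaviour. It gave 1.03 on the Elongin A+/+ array, a value level with the floor, and 2.09 on the Elongin A-/- array, a log2 difference of 1.02. Of 2785 genes at a similar level 17.3% were as far apart, and the difference was 0.60 with the array median added to each value before the logarithm. Zim1 and Usp29, imprinted neighbours of Peg3 on chromosome 7, were below the floor on both arrays, as was Aurkc, and Olfr1350 was near it (1.13 to below the floor).

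**Figure D2:**
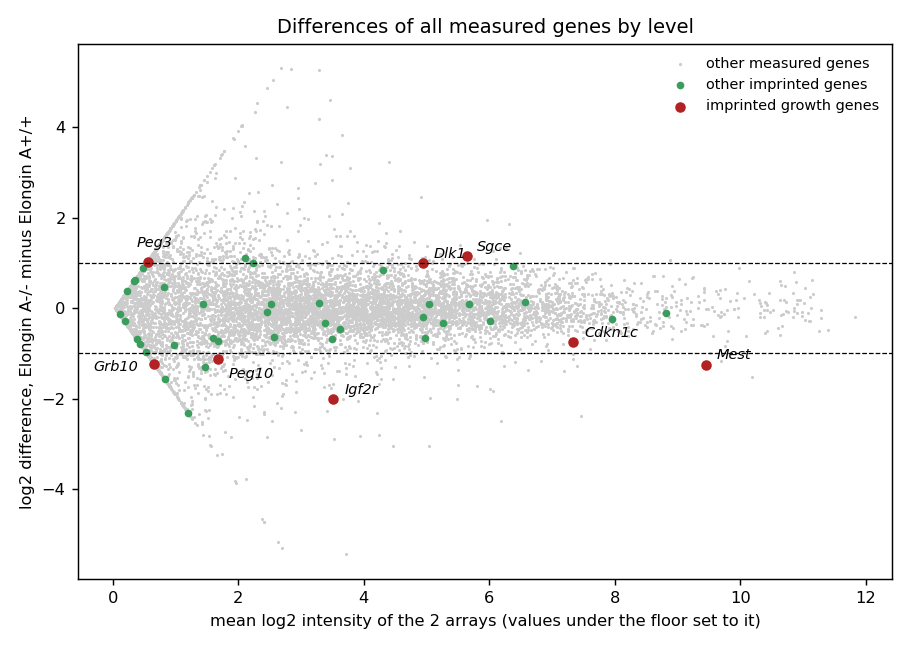
Log2 difference (y axis, Elongin A-/- minus Elongin A+/+) against mean log2 intensity (x axis) for 9568 measured genes in grey, with 37 other imprinted genes in green and the imprinted growth genes in red with names; dashed lines mark 2-fold. Igf2r, Mest, Sgce and Dlk1 lie at the edge of the grey cloud for their level, while Grb10, Peg3 and Peg10 lie inside its broad dim end.

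**Figure D3:**
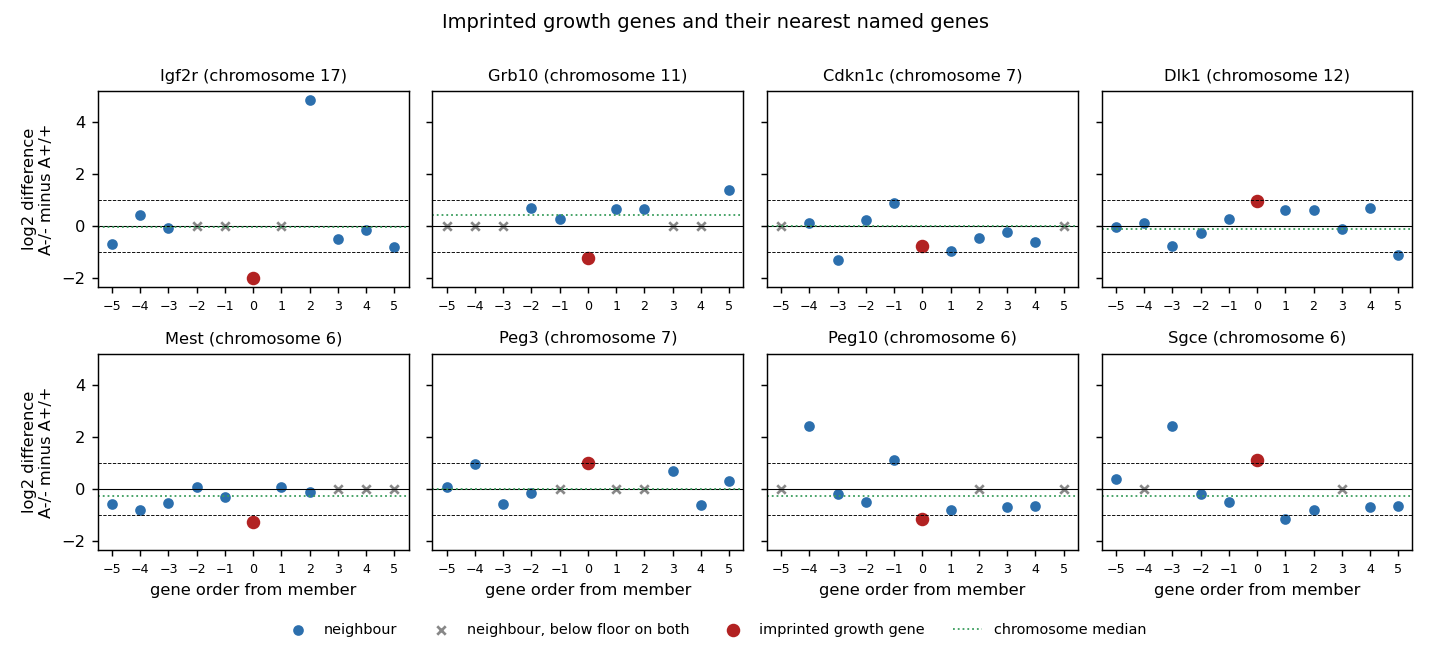
Log2 difference of each imprinted growth gene (red, at 0 on the x axis) and of the 5 nearest named genes on either side in RefSeq order (blue, or a cross where below the floor on both arrays), with the chromosome's median dotted; distances are ranks and not bases. Neighbours under the floor on 1 array are drawn at their bound and could lie further from 0. Igf2r lies below each of its measured neighbours, which run from -0.79 to 4.85 (Mrgprh, a bound). Grb10 lies below 0 while its measured neighbours lie above it.

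The other imprinted genes included few with wide differences. Of 61 further imprinted genes listed, 45 were named on the array and 37 measured, and 4 of these (10.8%) were at least 2-fold apart, against 12.8% of all measured genes. That order turned with the floor at the 25th percentile, where 11 of 42 (26.2%) stood against 16.5% of all genes, and without a floor, where 26.7% stood against 21.3%. With the floor at the 75th percentile none of 20 was apart, against 4.80% of all genes. Their median was -0.20. Many of them are known to be imprinted in some tissues only, such as placenta. Among 13 measured paternally expressed genes the median was 0.10, with none at least 2-fold higher and 1 lower, Nap1l5, a nucleosome assembly protein of chromosome 6 (at least 2.99-fold, from 3.07). Among 24 maternally expressed genes the median was -0.26, with 1 higher and 2 lower. The higher one was Dcn, the matrix proteoglycan decorin (2.92 to 6.29), and the lower ones were Calcr and Tssc4 (4.31 to 1.76). By any margin 8 of the 13 paternally expressed genes were higher and 5 lower, and 7 of the 24 maternally expressed were higher and 17 lower, where 48.4% of all measured genes were higher. Of these genes, 4 of the 13 and 7 of the 24 were bounds. Several in each list differed by less than the SD between probes of 0.43, so that their direction is unsure. Several of the lower maternally expressed genes, Calcr and Ppp1r9a among them, lie on chromosome 6, where 32.0% of measured genes were higher. In the 8 genes described above, 3 of 5 paternally expressed genes were higher, with a median of 0.99, and all 3 maternally expressed genes were lower, with a median of -1.24. Those signs were the same in each of up to 10 other settings of processing in which a gene was measured. Changing the floor or adding the array median cannot turn a sign, and settings of probes leave a gene with 1 probe unchanged. Only the settings of scaling and chromosome could have turned most of these signs. Mest and Peg10 were the paternally expressed genes that were lower, and no difference between maternally and paternally expressed genes was tested.

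Genes of the insulin-like growth factor axis differed in both directions. Of 23 measured, 5 were at least 2-fold higher and 2 lower (30.4% apart), with a median of 0.11 that was 0.00 without a floor. Igfbp4 (7.62 to 19.7) and Igfbp5 (at least 3.15-fold, to 3.24), proteins that bind the growth factors outside the cell, were higher, as was Igfbp7 (3.08 to 6.58), named after its value was seen. Grb7, an adaptor related to Grb10, had 2.30 and 7.26, opposite in direction to Grb10. Both lie on chromosome 11, as does Igfbp4, and the median of that chromosome was 0.41. With each chromosome's median removed, Grb7 stood at 1.25 and Igfbp4 at 0.96, just inside 2-fold. Shc1, another receptor adaptor, had 1.65 and 4.20. The lower genes were Pik3ca, a catalytic subunit of phosphoinositide 3-kinase (31.3 to 4.22), and Grb14, the third adaptor of that family (4.16 to 1.69), also named after its value was seen. The growth factor receptor Igf1r had 37.6 and 39.3, and M6pr, the smaller mannose 6-phosphate receptor, had 5.52 and 4.83, so neither showed the difference seen for Igf2r. These receptor values were looked at after they were seen.

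None of 17 measured factors that set or keep imprints was 2-fold apart, although 1 of the 17 was higher by 2-fold with the floor at the 25th percentile or with none. That gene was Dppa3, which protects imprints in the early embryo (0.69 to 1.61, at least 1.57-fold), named after its value was seen. Their median was -0.20, or -0.08 as deposited. The widest were Ezh2, a histone methyltransferase of Polycomb (96.2 and 54.9), which lies on chromosome 6, and Dnmt1, the maintenance DNA methyltransferase (3.48 and 2.03). Measured genes of cyclin-dependent kinase inhibitors, G1 kinases, G1 cyclins and the retinoblastoma family numbered 12, with a median of -0.44. Of these, 1 was lower by at least 2-fold and none was higher. That gene was Cdkn2b, an inhibitor of CDK4 and CDK6 (7.74 to 2.51), and it was lower together with Cdkn1c. Cdkn1a, the p21 gene, had 18.3 and 28.1, again looked at after its value was seen.

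Markers of several lineages differed in level between the arrays, and in bulk RNA fewer cells of a type cannot be told apart from less RNA per cell. Of 17 measured mesoderm and mesenchyme markers 8 were at least 2-fold higher on the Elongin A-/- array and none lower. Kdr (2.23 to 54.4) and Col1a1 (at least 4.44-fold) led them. The summed intensity was 112 on the Elongin A+/+ array and 340 on the other, the largest part of each in Col3a1 (41.8 and 152). Sums, here and below, are over all named genes of a list, measured or not, without a floor. Of 14 endothelium and blood markers 11 were higher and none lower, with sums of 19.6 and 157, led by Cldn5 (1.56 to 60.2) and Tal1 (at least 10.6-fold). Of 20 neuron and neural progenitor markers 10 were lower and none higher, with sums of 644 and 345, led by Olig3 (40.8 to 5.72) and Neurod4 (20.4 to 3.14).

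Endoderm markers were split. Of 11 measured, 6 of them bounds, 3 were at least 2-fold higher and 1 lower, with sums of 27.4 and 52.1. Sox7, a transcription factor, went from 1.25 to 14.9, and Fga, which encodes fibrinogen alpha, reached at least 6.54-fold. Afp, the alpha-fetoprotein gene and the 1 lower marker, went from 4.00 to below the floor. Trophoblast markers were scarce, with 5 of 11 named genes measured and sums of 74.1 and 88.9. Krt19 (4.42-fold) was higher and Cdx2 (at least 2.84-fold) lower. Pluripotent cell markers had sums of 70.4 and 69.2, with 2 of 10 higher, Dppa4 and Sall4 (each 2.39-fold), and 1 lower, Zfp42 (4.35 to 1.48). The part of these marker differences in the values of the imprinted growth genes was not tested. By any margin 13 of the 17 measured mesoderm markers were higher and 4 lower. Mest, a gene abundant in embryonic mesoderm, was lower on these arrays, as were Igf2r, Grb10, Cdkn1c and Peg10, while Dlk1, Sgce and Peg3 were higher.

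**Figure D4:**
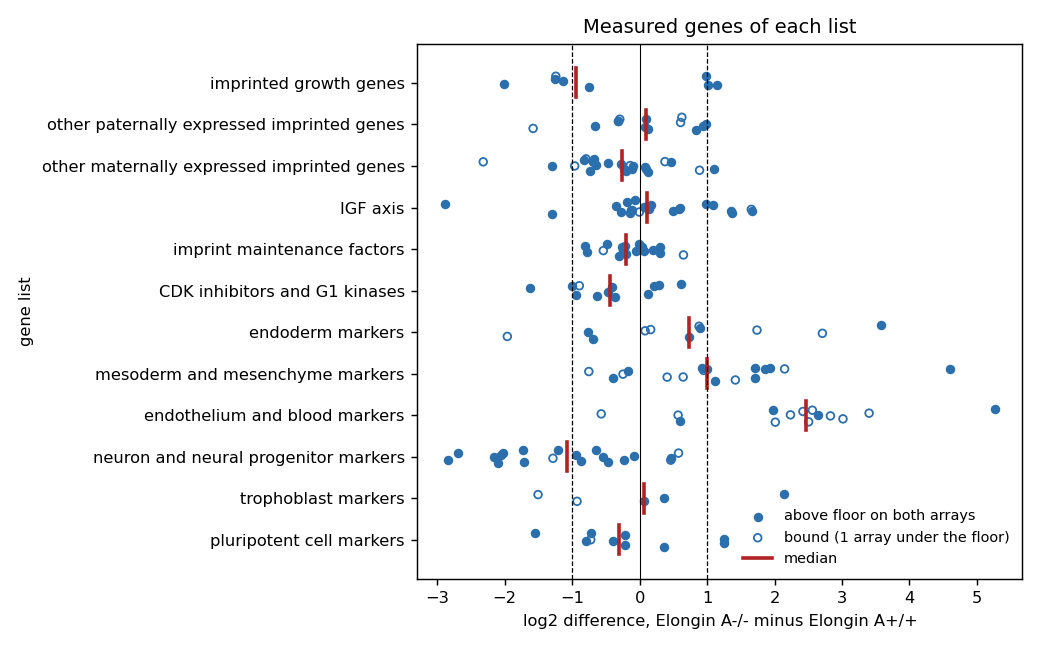
Log2 difference (x axis, Elongin A-/- minus Elongin A+/+) of each measured gene in 12 lists (rows), with bounds as open circles and the median of each list as a red bar; dashed lines mark 2-fold. The imprinted growth genes leave the centre empty, with values from -2.01 to -0.75 and from 0.99 to 1.14. The other imprinted lists have medians of 0.10 and -0.26, with single values from -2.32 to 1.11.

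**Figure D5:**
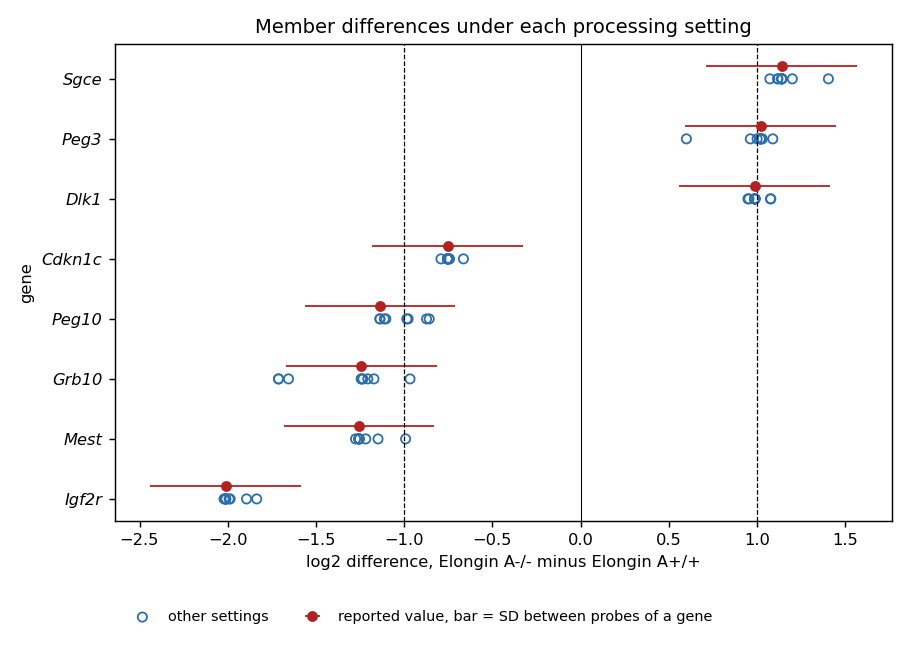
Log2 difference of each imprinted growth gene as reported (red, with a bar of 1 SD between probes of a gene, 0.43) and under up to 10 other settings (open circles); the dashed lines mark 2-fold. No value crosses 0, which changing the floor or adding the array median could not have brought about. Igf2r and Sgce stay past 2-fold in each setting, while Peg10, Peg3, Dlk1, Mest and Grb10 have values on both sides of a dashed line.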

How the data were processed

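For each genotype 1 Applied Biosystems mouse array with 32440 probes was analysed. Per the labels' protocols, 1 µg of total RNA was turned into digoxigenin-labelled cRNA. The deposited intensities are linear, with medians of 1.02 and 1.03; the authors' scaling, background correction and filters are not stated in the labels.

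Probe names came from the platform annotation, where 14253 have 1 symbol, 243 several and 17944 none. Of the former, 14245 matched RefSeq (GRCm38.p6) by gene number, and 0 symbols differed; the table gave chromosomes and gene order. For genes with several probes the brightest was used.

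The 75th percentiles of the arrays differed by 0.15 on the log2 scale and the 10th by -0.16, past a limit of 0.1, so the arrays were quantile normalised. A gene above the array median on at least 1 array was measured (9568, of which 7529 on both); lower values were set to this floor. Quantile normalisation hides a shift of most genes in 1 direction. No p-value was computed. Precision is limited by there being so few arrays.

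The members and the 11 gene lists were chosen with earlier results of these data known. Named genes were all members, at most 5 genes per list among those at least 2-fold apart (2 where none was), the 2 nearest named genes on each side, and Eloa; others are said to be chosen after their values were seen. The rule also names a gene that is left out here. The alternatives were 10 settings of scaling, floor, pseudocount, probes and chromosome, and counts at 1.5-fold and 3-fold. Scripts ran in Python 3.11.15 with numpy 2.4.6, pandas 2.3.3, statsmodels 0.14.6 (loess span 0.3) and matplotlib 3.10.9, and were tested on simulated data.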

Additional observations from a re-analysis of the deposited data

How the results depend on the processing

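All 8 genes kept their sign in each setting in which they were measured, 8 to 10 of the 10. Settings of the floor or the pseudocount cannot turn a sign, and settings of probes leave a gene with 1 probe unchanged. For most of the genes only the settings of scaling and chromosome could have done so. Igf2r (-2.02 to -1.84), Sgce (1.07 to 1.40) and Cdkn1c (-0.79 to -0.66) kept their side of 2-fold, while Peg10 ranged from -1.14 to -0.86, Peg3 from 0.60 to 1.09, Grb10 from -1.71 to -0.97, Mest from -1.28 to -0.99 and Dlk1 from 0.95 to 1.08. The 2 higher genes became 1 when arrays were centred on their median above the floor, when the floor was the 75th percentile and when the array median was a pseudocount, and 0 at 3-fold, but 3 as deposited, with each chromosome's median removed or at 1.5-fold. The 4 lower genes became 2 with that floor, that pseudocount, or each chromosome's median removed, and 1 at 3-fold, but 5 at 1.5-fold. They became 3 as deposited, with the mean over probes, or with genes of 1 probe only. The floor at the 75th percentile left 5 of the genes measured, and genes with 1 probe only left 7. The median of the genes ranged from -0.95 to -0.75. The 4 other imprinted genes at least 2-fold apart became 19 at 1.5-fold, 1 at 3-fold, 11 with a 25th percentile floor, 12 without a floor, 0 with it at the 75th and 2 with the pseudocount. Apart from the settings' own construction, the cause was not tested. Among all measured genes 16.5% were 2-fold apart with the 25th percentile floor and 21.3% without a floor. With the floor at the 75th it was 4.80%, and with the pseudocount 8.66%. No such share was computed at 1.5-fold or 3-fold, so the counts there, of either set of genes, have no background beside them. Of all genes at least 2-fold apart 53.1% were higher, and 64.0% as deposited. Of 582 values of 61 further named genes, 527 moved by less than the SD between probes, 55 by more, and none past 2-fold reversed. Many of the 527 could not move, since settings of probes leave genes with 1 probe unchanged. A lower floor likewise leaves genes above the floor on both arrays unchanged. The trophoblast median turned sign with centring (-0.01), and with a 25th percentile floor (-0.65) or none (-0.55), and the pluripotent median with the floor at the 75th (0.07). Signal over background limits Grb10, Peg3 and Peg10 most. No paired analysis was possible because there is 1 array per group.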
